A study of Mus musculus with 4 samples.

Results

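Interleukin-17A (IL-17A) is an inflammatory cytokine of the skin, and IL-17 receptor C, the product of Il17rc, is a chain of its receptor. Here mouse epidermal keratinocytes of an Il17rc knockout (KO) were compared with wild-type (WT) keratinocytes after the same exposure to IL-17A, gene by gene. The comparison was set by the sample labels and uses 2 of the 4 libraries of the study, 1 on each side, and all 13102 genes of the deposited tables. Of these, 12934 had a mean of at least 1 CPM, the count taken as a share of the library's scaled total, over the 4 libraries and enter the counts given below.

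The cells were primary keratinocytes of newborn C57BL/6 mice, freed with dispase and trypsin, and they were cultured for 48 h in 154CF medium with the HKGS growth supplement. The 2 libraries compared were WT with IL-17A and Il17rc KO with IL-17A, both at 100 ng/mL for 8 h. The remaining libraries, untreated WT and Il17rd KO with the same IL-17A exposure, are given beside them where a level needs a reference. All 4 groups share the strain background named in the labels, the tissue and the culture. The labels used here do not state what was deleted in the Il17rc allele, the number and sex of the mice or whether mice were pooled. With 1 library a group, differences below lack replicates, and p-values were not computed. An untreated Il17rc KO library was not analysed here, so what the genotype does by itself and what it does to the IL-17A response cannot be told apart.

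IL-17A is made mainly by T cells and innate lymphocytes and acts on epithelial cells through a receptor that contains IL-17 receptor A and, in the textbook complex, IL-17 receptor C. The receptor recruits the adaptor Act1 and TRAF proteins, which feed the NF-kB and MAP kinase pathways and also stabilise short-lived messenger RNAs. In keratinocytes the known outcome is the release of neutrophil-attracting chemokines, colony-stimulating factors and antimicrobial proteins, and the pathway is a drug target in psoriasis.

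Counts are given in a fixed order, which is untreated WT first, then WT, Il17rc KO and Il17rd KO cells with IL-17A. Totals over the listed genes lay between 19711866 and 19904695 per library, so a count means nearly the same level in each. A fold is the ratio of CPM in the Il17rc KO library to that in IL-17A WT, followed in parentheses by its exact 95% binomial interval, which covers counting error only. A gene is called higher or lower when that ratio was at least 2-fold and its interval excluded 1. Log2 ratios are those of Il17rc KO over IL-17A WT with a prior count of 2.

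Il17rc (chromosome 6, 113471427 to 113483140, plus strand, GRCm38) had 2729, 1152, 439 and 1718 counts. It was 2.69-fold lower (2.41 to 3.01) in the library of the knockout, the lowest of the 4, and transcript was still counted there. Whether that transcript can encode a receptor chain is not visible in a total over the gene. Il17ra, which encodes the shared chain, had 548, 462, 577 and 558 counts, and Il17re, which encodes the partner chain for IL-17C, had 1229, 1004, 1061 and 1052. Neither was called. Il17rd, another chain of the family, had 252, 265, 150 and 5 counts, and its ratio to IL-17A WT of -0.85 on the log2 scale did not reach the called size. Il17rb, the chain for IL-17E, was called higher and was 8.13-fold higher (2.48 to 42.1), a ratio that rests on few reads, 72, 3, 25 and 28.

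Downstream of the receptor, transcript levels of the signalling proteins were close in the 2 libraries. Of 33 adaptor, kinase and NF-kB genes, 0 were called higher and 1 lower. Their median log2 ratio was 0.04, and that of all genes was 0.04. The called gene was Ikbke, a kinase that phosphorylates Act1, with 1000, 2035, 859 and 1118 counts.

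Over all genes, 1430 of 12934 were called, or 11.1%, the share against which the list counts below are to be read. The Il17rc KO level was above that of IL-17A WT for 804 genes (6.22%) and below it for 626 (4.84%), and 207 and 164 of them differed by at least 4-fold. As a reference, 19.7% of genes were called between IL-17A WT and untreated WT (8.97% higher and 10.7% lower), and 14.3% between IL-17A Il17rc KO and untreated WT (7.27% higher and 7% lower). The share called fell with level, from 20.5% to 13%, 8.43% and 6.22% over the lower 4 of 5 equal classes of mean CPM, and was 7.07% in the highest. The called genes were mostly protein-coding, 1278 of the 1407 with a position in the annotation. In the plot of ratio against level the middle 80% of genes lay between log2 ratios of -0.59 and 0.71.

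**Figure D1:**
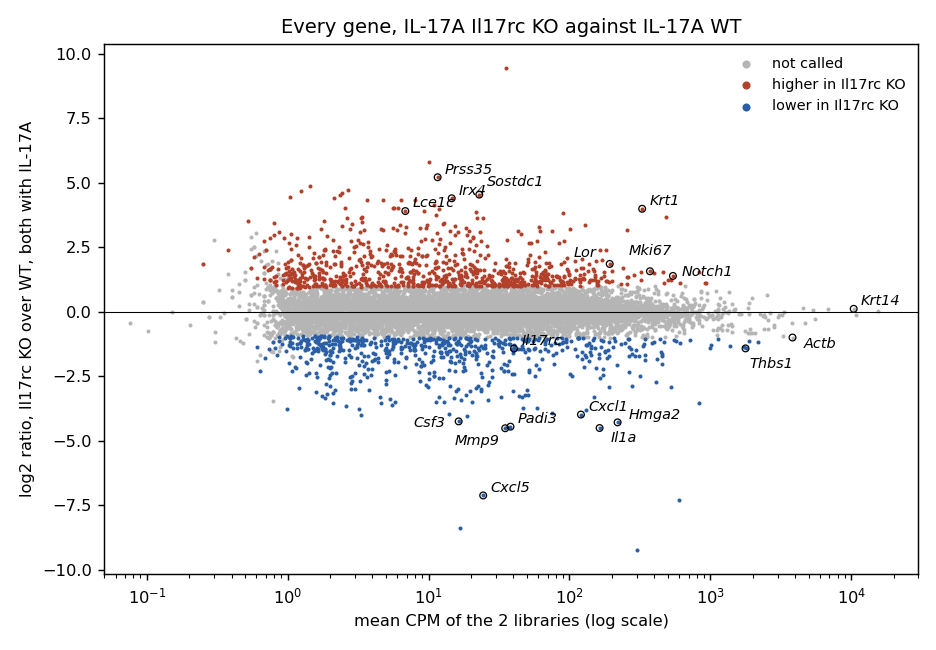
Each point is 1 gene, at its mean CPM in IL-17A WT and IL-17A Il17rc KO (horizontal, log scale) and its log2 ratio of Il17rc KO over WT (vertical), with called genes in red and blue. Cxcl5 lies at -7.12 and Krt1 at 4.00, while Krt14, near the right edge, lies at 0.12. The unlabelled points above 5 and below -7 on the vertical axis are numbered gene models and pseudogenes.

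The genes that attract and support neutrophils lay to one side. Of 7 measured neutrophil chemokines and colony-stimulating factors, 5 were called lower in the Il17rc KO library and 0 higher, and the median log2 ratio was -2.55. The promoters of 3 of these 5 are shown because they hold an NF-kB letter pattern close to the start site. Cxcl5 and Csf3 had no entry among the promoters used here and were not searched. The pattern searched was GGGA, any base and TTTCC, on both strands in the 250 bases before each RefSeq start (GRCm38.p6), and it is in capitals. Sequences run 5′ to 3′ on the strand of the gene.
Cxcl1, chr5:90890995-90891244, plus strand: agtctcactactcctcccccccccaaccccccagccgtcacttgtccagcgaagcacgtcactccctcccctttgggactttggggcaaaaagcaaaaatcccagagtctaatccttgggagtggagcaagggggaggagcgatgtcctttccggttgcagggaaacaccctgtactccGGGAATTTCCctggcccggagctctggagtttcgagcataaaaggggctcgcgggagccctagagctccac
Cxcl2, chr5:90903649-90903898, plus strand: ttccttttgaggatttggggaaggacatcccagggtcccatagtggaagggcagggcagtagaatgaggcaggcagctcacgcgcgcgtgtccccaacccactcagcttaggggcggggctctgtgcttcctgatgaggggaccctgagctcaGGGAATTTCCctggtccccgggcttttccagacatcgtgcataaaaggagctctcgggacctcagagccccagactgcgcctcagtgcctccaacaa
Csf1, chr3:107760470-107760719, minus strand: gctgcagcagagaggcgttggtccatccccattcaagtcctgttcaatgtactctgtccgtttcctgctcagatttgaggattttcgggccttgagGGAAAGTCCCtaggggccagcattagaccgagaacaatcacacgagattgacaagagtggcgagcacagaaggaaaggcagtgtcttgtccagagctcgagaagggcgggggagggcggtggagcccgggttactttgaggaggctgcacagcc

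The match begins 71 bases before the start in Cxcl1, 97 in Cxcl2 and 154 in Csf1. Cxcl1 and Cxcl2 lie next to each other on chromosome 5. The same letters occur in 117 of 32851 promoters of the RefSeq table (0.356%), in 43 of 12080 promoters of genes under the size rule (0.356%), in 5 of 547 promoters of genes called lower (0.914%) and in 0 of 701 promoters of genes called higher. The promoters of Cxcl1, Cxcl2 and Csf1 are among those 5, so that share is not separate from the sequences shown. The promoters searched belong to 417 of the 626 genes called lower and 558 of the 804 called higher. A gene can have more than 1 promoter among them. Another 3 patterns were searched the same way. The AP-1 letters TGANTCA were in 8.78% of promoters of genes called lower and 7.99% of those called higher, against 4.69% under the size rule and 6.75% of the RefSeq table. The C/EBP letters, TTGC, any 2 bases and AA, were in 8.04% and 10.4%, against 7.32% and 9.56%, and TATAAA was in 10.6% and 10.3%, against 6.42% and 12.4%. The windows of Il1a and Il18r1, both called lower, do not hold the NF-kB letters. A match is a string of letters and not a measured binding site.

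Cxcl5, a ligand of the neutrophil receptor CXCR2, had 12, 951, 5 and 70 counts. It was 195-fold lower (83.2 to 602), and its 5 counts in the Il17rc KO library were the fewest of the 4. Cxcl1, a ligand of the same receptor, had 92, 4443, 286 and 468 counts and was 15.9-fold lower (14.1 to 18.003). Against untreated WT, the Il17rc KO level of Cxcl1 was 2.97 times as high (2.34 to 3.801), so it lay between the WT libraries without and with IL-17A. Cxcl2 showed the same order with 22, 426, 73 and 82 counts and was 5.98-fold lower (4.66 to 7.77). Csf3, the granulocyte colony-stimulating factor, had 17, 610, 31 and 53 counts and was 20.2-fold lower (14.1 to 29.9). Csf1, the macrophage colony-stimulating factor, was high in every library, with 1227, 3672, 1526 and 1964 counts, and was 2.47-fold lower (2.32 to 2.62). Lif and Clcf1, cytokines of the IL-6 family, were not called, at log2 ratios of -0.98 and -0.35, although Lif reached the called size with TMM factors of the 2 libraries alone and with upper quartile factors.

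Among 9 other chemokines 2 were called lower and 1 higher. The membrane-bound Cx3cl1 had 58, 162, 15 and 69 counts and was 11.1-fold lower (6.51 to 20.2). Cxcl10, an interferon-inducible T cell chemokine, was 2.92-fold lower (2.13 to 4.06). Cxcl14, which is made by resting epidermis, was the called higher one, with 1767, 553, 1224 and 850 counts. Ccl20, the ligand of the T cell receptor CCR6 and a known IL-17A target, stood apart from the neutrophil chemokines, with 91, 152, 143 and 236 counts and a log2 ratio of -0.12.

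The IL-1 family was split by member. Of 13 genes measured, 4 were called lower and 2 higher. Il1a, an alarmin stored in keratinocytes, had 246, 6135, 275 and 501 counts and was 22.9-fold lower (20.3 to 25.9), which set the Il17rc KO library at 1.07 times that of untreated WT (0.897 to 1.27). Il1f6, which encodes IL-36 alpha, had 38, 171, 26 and 240 counts and was 6.74-fold lower (4.44 to 10.6). The other IL-36 genes did not share that pattern, since Il1f8, Il1f9 and the antagonist Il1f5 lay at log2 ratios of 0.67, 0.41 and 0.55 and were not called. The receptor chains Il18r1 and Il1rl1 were 4.79-fold lower (3.95 to 5.85) and 2.098-fold lower (1.61 to 2.75). Their ligands lay in the opposite direction. Il18 had 441, 27, 245 and 178 counts and was 8.86-fold higher (5.94 to 13.7), and Il33, the ligand of Il1rl1, had 214, 49, 290 and 595 and was 5.78-fold higher (4.26 to 7.99).

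Other epithelial cytokines were called lower in 6 of 14 cases and higher in 2. Il23a, a subunit of IL-23, which maintains IL-17-producing T cells, had 17, 209, 17 and 32 counts and was 12.6-fold lower (7.68 to 22.04). Its 17 counts in the Il17rc KO library matched the 17 in untreated WT. Il24, an IL-20 family cytokine, had 2, 333, 46 and 40 counts, and Tnf had 319, 1120, 230 and 382 and was 4.99-fold lower (4.33 to 5.78). The lymphatic growth factor gene Vegfc was 7.65-fold lower (4.27 to 14.9), while Vegfa, the main vascular growth factor, was 3.76-fold higher (3.26 to 4.35). Tslp, an alarmin of allergic inflammation, had 777, 865, 2350 and 1115 counts, the most in the Il17rc KO library, and was 2.65-fold higher (2.45 to 2.87).

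**Figure D2:**
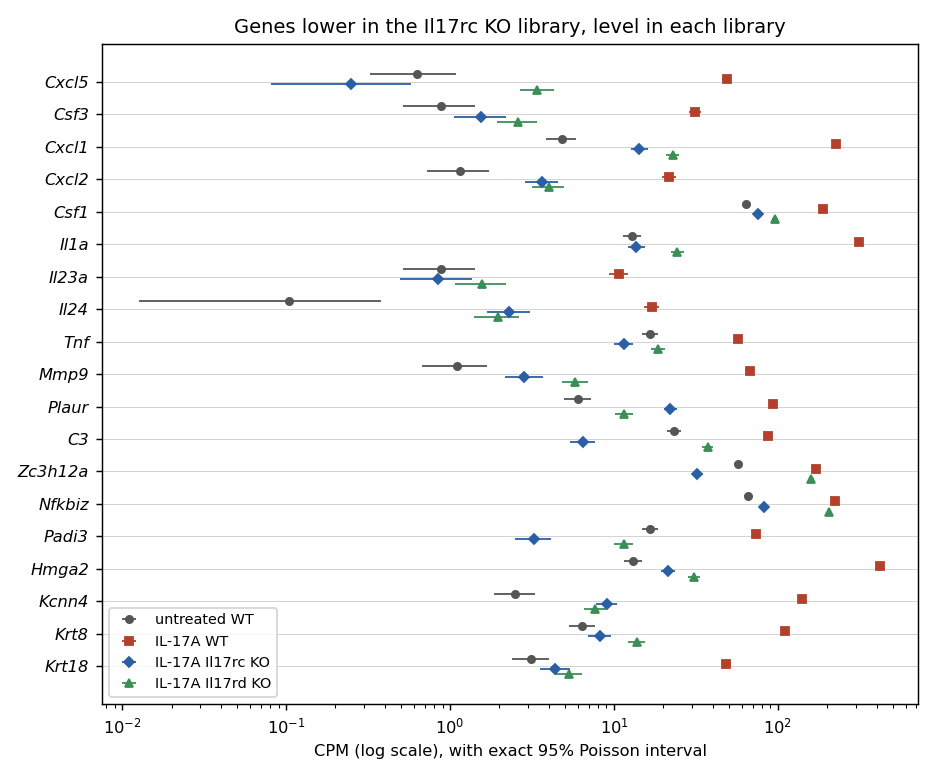
CPM of 19 genes called lower (horizontal, log scale) in the 4 libraries, 1 marker a library, with exact 95% Poisson intervals that cover counting error only. The IL-17A WT squares lie to the right of the Il17rc KO diamonds for every gene. For Zc3h12a and Nfkbiz the Il17rd KO triangles lie beside the squares.

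Antimicrobial and acute phase genes were called lower in 9 of 16 cases and higher in 2. Complement C3 had 445, 1706, 130 and 765 counts and was 13.4-fold lower (11.2 to 16.2), with fewer counts than in untreated WT. S100a8 and S100a9, the subunits of calprotectin, had 75, 653, 269 and 2575 and 103, 770, 258 and 3470 counts and were 2.49-fold lower (2.15 to 2.88) and 3.06-fold lower (2.65 to 3.54). Both lay above untreated WT in the Il17rc KO library and were highest in the Il17rd KO library. Wfdc2, a secreted protease inhibitor, was 5.66-fold lower (3.54 to 9.49) with 6, 116, 21 and 33 counts. Slpi, of the same inhibitor family, had a log2 ratio of -0.94 and was not called. Defb1, an epithelial defensin that is present without stimulus, was the reverse, with 5209, 1132, 6168 and 4667 counts and 5.32-fold higher (4.99 to 5.67). Lcn2, an iron-sequestering protein, was scarce in all libraries at 85, 54, 19 and 135 counts.

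Lyz2 of that list is also a macrophage marker, and it was 6.06-fold lower (4.66 to 7.97). Macrophage markers as a whole were lower in the Il17rc KO library, with 7 of 9 called lower and 0 higher. Their levels summed to 103.6, 54.4, 35.9 and 63.2 CPM in the order of the counts, and none was at 0. Mrc1, the mannose receptor, had 104, 77, 8 and 58 counts and C1qa had 124, 43, 10 and 56. Fewer macrophages and less RNA per macrophage cannot be told apart in these bulk libraries. The part of these cells in the cytokine and antimicrobial values was not tested. In IL-17A WT Cxcl1 had 4443 counts, Il1a 6135, C1qa 43 and Lyz2 396. Such counts do not show which cells the RNA came from.

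The regulators that limit or shape the response were called lower in 4 of 27 cases and higher in 1. Zc3h12a, which encodes the ribonuclease Regnase-1, had 1095, 3322, 646 and 3274 counts and was 5.27-fold lower (4.84 to 5.74). Nfkbiz, the transcriptional cofactor IkB zeta, had 1257, 4338, 1659 and 4209 counts and was 2.68-fold lower (2.53 to 2.84). Tnfaip2 and Ier3 were 4.88-fold lower (4.17 to 5.73) and 2.76-fold lower (2.65 to 2.88). Several well known NF-kB feedback genes were not called, among them Nfkbia, Tnfaip3, Birc3 and Icam1, at log2 ratios of -0.67, -0.47, -0.33 and 0.25. Tifa was the called higher one, at 1.15.

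Genes that respond to ERK, a MAP kinase of growth factor and cytokine receptors, were called lower in 8 of 18 cases and higher in 1, and their median was -0.92 on the log2 scale. The transcription factors Etv4 and Etv5 had 46, 1143, 280 and 142 and 18, 768, 151 and 123 counts and were 4.18-fold lower (3.67 to 4.78) and 5.21-fold lower (4.37 to 6.25). Dusp6, the phosphatase that inactivates ERK, had 211, 1942, 430 and 285 counts and was 4.63-fold lower (4.17 to 5.15). All 3 lay above untreated WT in the Il17rc KO library, Etv4 by 5.82-fold (4.25 to 8.13), Etv5 by 8.02-fold (4.91 to 13.9) and Dusp6 by 1.95-fold (1.65 to 2.31). Of 13 ligands and receptors of the epidermal growth factor family, 3 were called lower and 1 higher. Hbegf, Areg and Tgfa were called lower, at -1.33, -1.22 and -1.03 on the log2 scale, and Epgn was called higher, with 1554, 742, 2897 and 1727 counts. Tgfa was not called with library totals alone as the scaling. Immediate early factors did not follow the ERK genes, with 5 of 22 called higher and 0 lower. Jun had 5921, 2816, 7453 and 5978 counts and was 2.58-fold higher (2.47 to 2.698), Egr3 was 3.37-fold higher (2.86 to 3.99) and Atf3 2.88-fold higher (2.47 to 3.36).

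Proteases of the matrix and the urokinase system were called lower in 10 of 25 cases and higher in 2. Mmp9, a gelatinase, had 21, 1314, 57 and 119 counts and was 23.6-fold lower (18.1 to 31.4). Plau, the urokinase, had 5050, 14249, 3555 and 6859 counts, and its receptor Plaur had 115, 1834, 443 and 237. They were 4.11-fold lower (3.96 to 4.26) and 4.24-fold lower (3.82 to 4.72). Timp3 and Adamts1 were the called higher ones, at log2 ratios of 1.32 and 2.08. Kallikreins and their relatives, the proteases that shed the outermost cells of the skin, ran the other way, with 8 of 19 called higher and 2 lower. Klk7 had 10165, 3050, 8459 and 5010 counts, and Spink5, which encodes the kallikrein inhibitor LEKTI, had 12473, 3213, 9536 and 8643. Prss35 had 345, 10, 455 and 216 counts and was 44.4-fold higher (23.9 to 93.2), the widest ratio of the list.

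Attachment genes formed a large group on the lower side. Of 35 integrin, laminin and basement membrane genes, 13 were called lower and 2 higher, and their median log2 ratio was -0.80. Lama3 and Lamb3 encode chains of laminin-332, which anchors basal keratinocytes. Lama3 had 17597, 38885, 15746 and 20095 counts and was 2.53-fold lower (2.48 to 2.58), and Lamb3 was 2.66-fold lower (2.602 to 2.72). The integrin genes Itga2 and Itga3 had 1797, 9504, 1322 and 2044 and 10135, 29766, 14622 and 11243 counts and were 7.37-fold lower (6.95 to 7.81) and 2.09-fold lower (2.05 to 2.13). Thbs1, which encodes the matrix glycoprotein thrombospondin-1, had 20947, 50625, 19429 and 20718 counts and was 2.67-fold lower (2.63 to 2.71). Itgb8 was the widest on the higher side, at 2.97. Itgb4, the hemidesmosome integrin, was not called at -0.68.

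Of 23 collagen chain genes, 8 were called higher, 5 lower and 10 neither, and their median log2 ratio was -0.22. Col4a1 and Col4a2, the basement membrane pair, had 4906, 12841, 3740 and 5658 and 3592, 9414, 2950 and 4090 counts and were 3.52-fold lower (3.39 to 3.65) and 3.27-fold lower (3.14 to 3.41). Col18a1 had 14993, 50146, 23775 and 26043 counts and was 2.16-fold lower (2.13 to 2.19). Among the called higher genes were the fibrillar collagen gene Col1a1, with 247, 27, 128 and 233 counts, and the type VI collagen gene Col6a2, with 230, 8, 128 and 142. Of 13 fibroblast markers, which include collagen genes of that list such as Col1a1 and Col6a2, 7 were called higher and 1 lower. Their levels summed to 102.5, 27.1, 61.4 and 84.2 CPM in the order of the counts, with none at 0. The part of fibroblasts in the collagen values was not tested.

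Actin and contractility genes lay low with few past the called size. Of 44, 3 were called lower and 0 higher, while 42 had a log2 ratio below 0 and the median was -0.56. Actb, which encodes beta actin, had 42414, 99848, 51299 and 45033 counts and a log2 ratio of -0.996. It was just short of the called size with the scaling used here and reached it with DESeq2 size factors, TMM factors of the 2 libraries alone and upper quartile factors. Of 25 sterol synthesis genes all 25 had a log2 ratio below 0 with the scaling used here, with a median of -0.40 and 2 called lower.

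Simple-epithelial keratins and epidermal keratins moved apart. Krt8 and Krt18, which pair in simple epithelia, had 123, 2146, 164 and 283 and 60, 947, 88 and 109 counts and were 13.4-fold lower (11.4 to 15.8) and 11.03-fold lower (8.86 to 13.9). Krt7, of the same kind, was 5.65-fold lower (5.19 to 6.16). Krt1 and Krt10, the pair of differentiating epidermal cells, had 48645, 756, 12388 and 22536 and 11590, 220, 2220 and 3635 counts and were 15.99-fold higher (14.9 to 17.2) and 9.85-fold higher (8.57 to 11.4). Their levels in the Il17rc KO library were 0.243 times that of untreated WT (0.239 to 0.248) and 0.183 times that of untreated WT (0.175 to 0.192), so they lay between the WT libraries. The basal pair Krt5 and Krt14 had 390468, 301441, 311820 and 346506 and 227716, 195461, 217234 and 234728 counts and log2 ratios of 0.01 and 0.12. The wound keratins Krt6a and Krt16 were not called, at 0.12 and 0.75. In all, 6 of 11 type II keratins were called higher and 2 lower, and 2 of 7 type I keratins were higher and 1 lower.

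The cornified envelope, the protein shell of dead surface cells, was represented by 3 lists on the higher side. Of 21 late cornified envelope genes, 19 were called higher and 1 lower, and the median log2 ratio was 2.84. Lce1c had 635, 15, 259 and 388 counts and was 16.9-fold higher (10.03 to 30.5), and Lce1b had 912, 41, 478 and 569. Within the Lce1 group Lce1h stood apart with 241, 323, 84 and 173 counts and was 3.94-fold lower (3.09 to 5.07). The Lce3 group, which is known for its link to skin injury and psoriasis, differed from Lce1 in its levels in the other libraries. Lce3f had 89, 132, 478 and 1001 counts and Lce3e 96, 24, 255 and 405, with more in the Il17rc KO library than in untreated WT. The Lce3 genes are near-identical to each other, and summed over its copies Lce3e kept the call at 2.49. Lce3f summed over its copies had 815, 350, 2143 and 3817 counts. By that sum IL-17A WT lay below untreated WT, unlike for Lce3f alone, and Il17rc KO still lay above untreated WT.

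Small proline-rich proteins, which crosslink the envelope, were called higher in 6 of 14 cases and lower in 1. Sprr1a had 28901, 8209, 24722 and 18497 counts and was 2.94-fold higher (2.87 to 3.01). Sprr2k was the called lower one at 17, 190, 49 and 59 counts. Granular layer proteins were called higher in 19 of 26 cases and lower in 0. Flg, which encodes profilaggrin, had 5000, 456, 3183 and 2009 counts, Lor, which encodes loricrin, had 16984, 1634, 6072 and 5354, and Flg2 had 553, 11, 215 and 151. Flg was 6.81-fold higher (6.17 to 7.53), Lor 3.63-fold higher (3.43 to 3.83) and Flg2 19.1-fold higher (10.4 to 38.8). Tgm1, the transglutaminase of the membrane, and Ivl, which encodes involucrin, were not called, at log2 ratios of 0.54 and 0.77.

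Against that direction stood the peptidylarginine deiminases, which citrullinate proteins of the hair follicle and upper epidermis. Of 4 such genes listed, 2 were measured. Padi3 had 318, 1430, 65 and 236 counts and was 22.5-fold lower (17.6 to 29.4), and Padi4 was 2.23-fold lower (1.84 to 2.699). The 5 measured Skint genes, whose member Skint1 is needed for epidermal gamma delta T cells, were all called higher. Skint4 had 480, 58, 225 and 280 counts and was 3.79-fold higher (2.83 to 5.14), and Skint1 and Skint3 rested on 5 and 2 counts in IL-17A WT. Clade B serpins and stefins were called higher in 9 of 22 cases and lower in 1, with Serpinb7 at 130, 12, 127 and 54 counts.

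**Figure D3:**
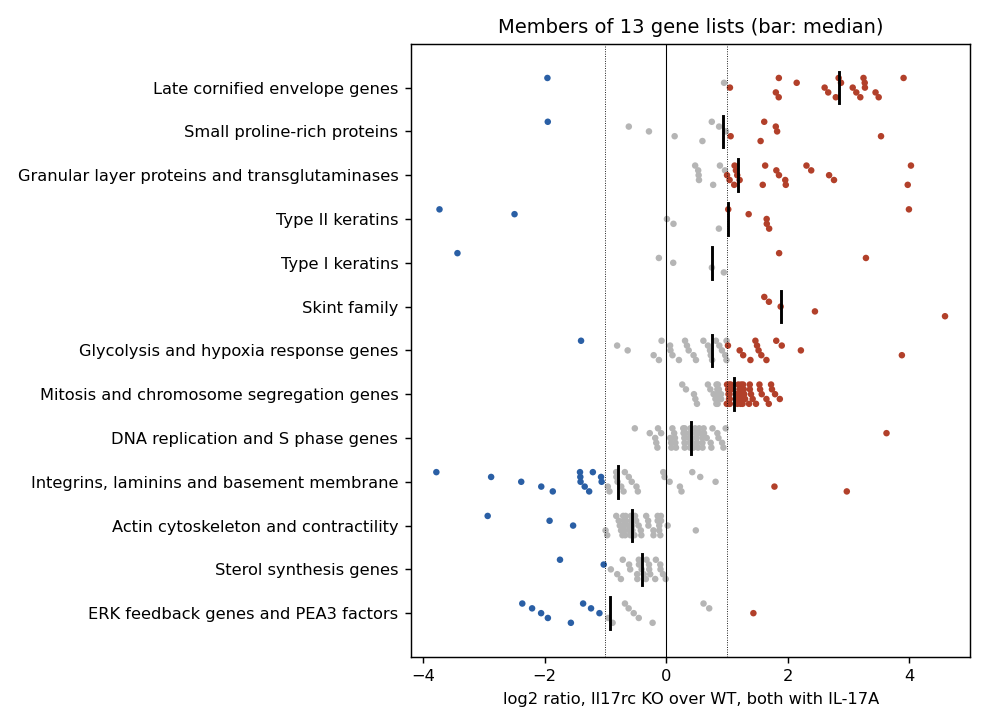
Log2 ratios of the members of 13 gene lists (horizontal), 1 point a gene, red where called higher, blue where called lower and grey where not called, with the list median as a black bar and dotted lines at 2-fold. Late cornified envelope genes centre on 2.84 with Lce1h to the left of 0, and mitosis genes centre on 1.11 with every member to the right of 0, whereas replication genes centre on 0.40.

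Most junction genes were not called, but the share called was above the 11.1% over all genes. Of 26 desmosome and cadherin genes, 6 were called higher and 1 lower (26.9%). Of 24 tight and gap junction genes 2 were called higher and 4 lower (25%). The desmosomal cadherins Dsc1 and Dsg1a, of the upper layers, had 3912, 383, 3685 and 3574 and 3450, 246, 2226 and 2302 counts and were 9.39-fold higher (8.45 to 10.5) and 8.83-fold higher (7.74 to 10.1), and Dsg1a has a near-identical copy. Dsg2 and Dsc2 were not called, at log2 ratios of 0.25 and -0.30. Cldn7 and Cldn3, tight junction claudins, were 16.4-fold lower (11.5 to 24.3) and 5.33-fold lower (4.65 to 6.14). Gjb2, which encodes a gap junction protein of the connexin family, had 143, 373, 1216 and 1182 counts and was 3.18-fold higher (2.83 to 3.58).

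Among 35 genes for ceramides and barrier lipids, 11 were called higher and 1 lower. The phospholipase gene Pla2g2f had 3448, 98, 690 and 795 counts and was 6.87-fold higher (5.55 to 8.58). Sptlc3, a subunit of the first enzyme of ceramide synthesis, was 5.23-fold higher (3.65 to 7.69). The lipoxygenase gene Alox12b was 2.17-fold higher (1.87 to 2.53).

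Transcription factors of epidermal differentiation were called higher in 12 of 32 cases and lower in 0. Irx4 had 435, 24, 561 and 698 counts and was 22.8-fold higher (15.2 to 35.9), and Pou2f3, a POU factor of suprabasal cells, had 753, 10, 244 and 289 counts and was 23.8-fold higher (12.7 to 50.3). Barx2, Casz1, Zfp750 and Ovol1 were at log2 ratios of 3.13, 2.03, 1.47 and 1.35. Trp63, the master factor of stratified epithelia, was not called at -0.05. The architectural chromatin gene Hmga2, which is low in most adult tissues, had 251, 8181, 428 and 633 counts and was 19.6-fold lower (17.8 to 21.6). Sox11 was also on that side with 165, 733, 65 and 374 counts.

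Notch1, a receptor that drives keratinocyte differentiation, had 14797, 5859, 15764 and 13663 counts and was 2.63-fold higher (2.55 to 2.71), and Notch3 was 2.999-fold higher (2.65 to 3.41). Their direct target Hes1 and the ligands Jag1 and Jag2 were not called, at 0.08, -0.36 and -0.02. In all, 4 of 16 Notch pathway genes were called higher and 0 lower. Wnt genes moved in both directions, 5 of 36 higher and 4 lower. Wnt7a had 676, 1743, 216 and 537 counts and was 8.27-fold lower (7.17 to 9.57), whereas Wnt4 had 9183, 1320, 5468 and 6946 and was 4.04-fold higher (3.81 to 4.296). Sostdc1, an inhibitor of BMP and Wnt signals, had 2212, 35, 883 and 1677 counts and was 24.6-fold higher (17.6 to 35.6). In the TGF-beta and BMP list 7 of 38 were called higher and 5 lower. Cyr61 and Ctgf, matrix proteins that respond to cell tension, had 2872, 13861, 2176 and 3054 and 2747, 5583, 1219 and 792 counts and were 6.53-fold lower (6.24 to 6.83) and 4.69-fold lower (4.41 to 4.997). The BMP target Id1 was 5.02-fold higher (2.81 to 9.64). Of 11 genes of the insulin-like growth factor axis, 5 were called lower and 1 higher. Among its binding proteins, Igfbp7 and Igfbp3 were called lower, with 1601, 10477, 1902 and 3475 and 2114, 8685, 1784 and 5782 counts, and Igfbp2 was called higher, with 12965, 460, 1821 and 3460.

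**Figure D4:**
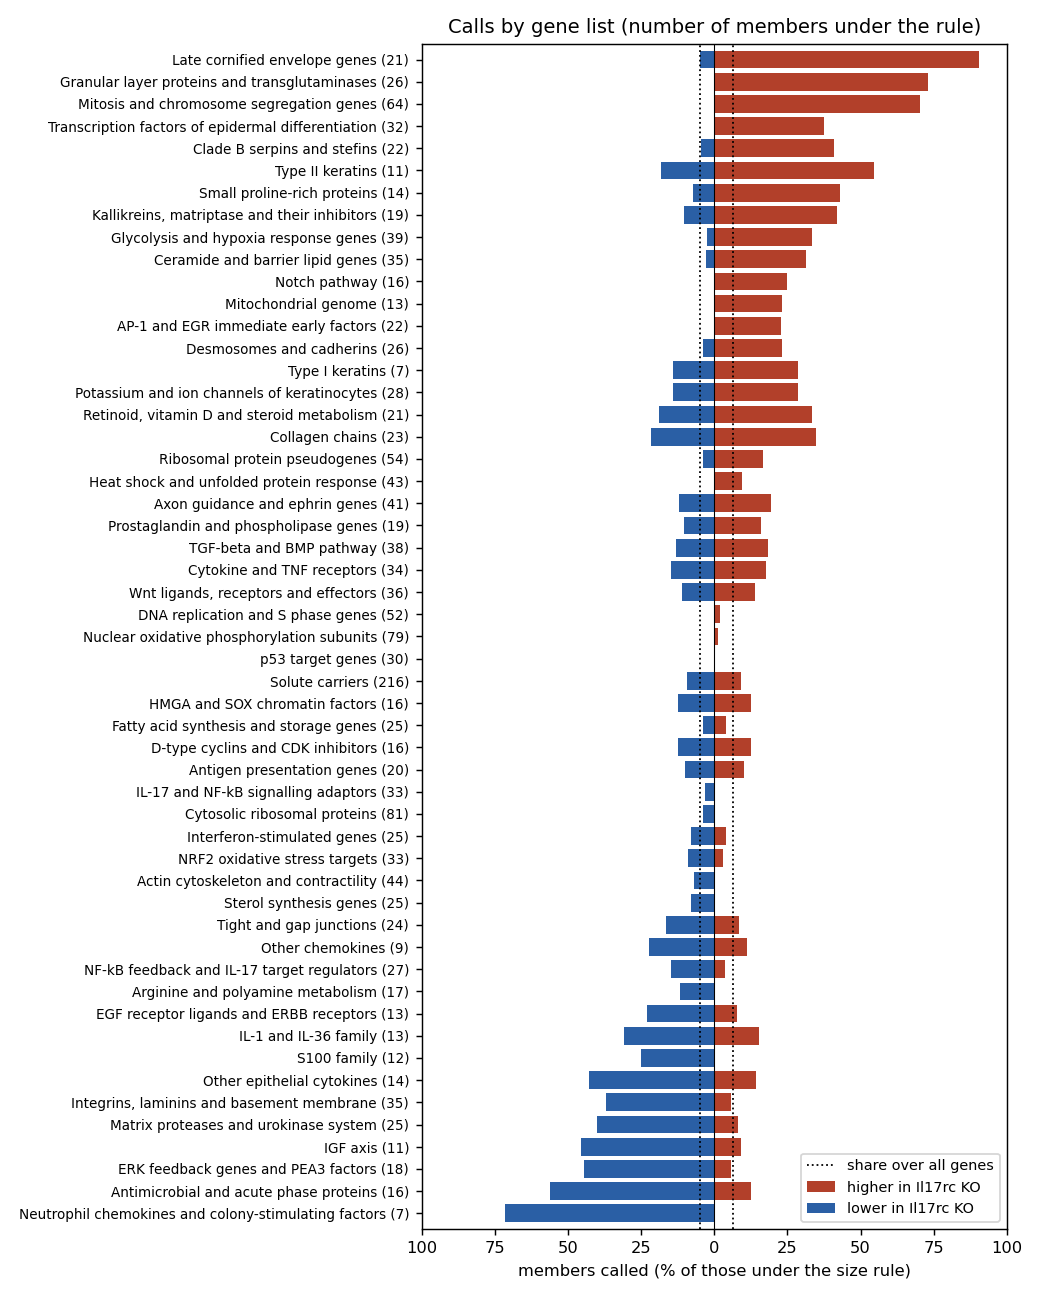
Share of members called higher (red, right) and lower (blue, left) in the Il17rc KO library, in percent of the members under the size rule, for each list with at least 7 such members, with their number in parentheses. Dotted lines mark 6.22% and 4.84%, the shares over all genes. Late cornified envelope genes stand at the top with 19 of 21 higher and neutrophil chemokines at the bottom with 5 of 7 lower.

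Cell cycle genes separated by phase. Of 64 mitosis and chromosome segregation genes, 45 were called higher without Il17rc and 0 lower, all 64 had a log2 ratio above 0 and the median was 1.11. Mki67, the proliferation marker, had 1750, 3667, 11189 and 5993 counts and was 2.98-fold higher (2.87 to 3.09). Cdc20, an activator of the anaphase-promoting complex, had 544, 1164, 4369 and 2343 counts and was 3.66-fold higher (3.43 to 3.91). Plk1 and Ccnb2 were 2.46-fold higher (2.31 to 2.63) and 2.36-fold higher (2.18 to 2.55). For each of these 4 genes the Il17rc KO library had the most counts of the 4 libraries. Of 52 replication and S phase genes, 45 had a log2 ratio above 0. Their median was 0.40, against 0.04 over all genes, but only 1 was called higher and 0 lower. The exception was E2f2, a transcription factor, with 342, 70, 909 and 275 counts and 12.7-fold higher (9.93 to 16.4). Ccnd1, the cyclin of G1 entry, had 1546, 8534, 5468 and 3484 counts and was not called at -0.68. Of 30 p53 target genes 0 were called in either direction.

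Genes of glycolysis and the hypoxia response were called higher in 13 of 39 cases and lower in 1. Bnip3, a mitophagy receptor, had 640, 52, 812 and 648 counts and was 15.2-fold higher (11.5 to 20.6). The glucose transporter gene Slc2a1 had 19824, 4062, 11745 and 17833 counts and was 2.82-fold higher (2.72 to 2.92), and the lactate exporter gene Slc16a3 was 3.14-fold higher (2.96 to 3.34). Hif1a itself was not called at 0.99. Of 79 genes listed by their symbols as nuclear subunits of oxidative phosphorylation, 1 was called higher and 0 lower. It was Ndufa4l2, a hypoxia-inducible gene that is in the list by its symbol only, with 107, 7, 69 and 90 counts.

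Channels and transporters held both directions, with 8 of 28 ion channel genes called higher and 4 lower. Kcnn4, a calcium-activated potassium channel, had 48, 2745, 182 and 158 counts and was 15.5-fold lower (13.3 to 18.1). Aqp3, the glycerol and water channel of the epidermis, had 3139, 170, 1552 and 1653 counts and was 8.91-fold higher (7.6003 to 10.5). The 3 subunit genes of the epithelial sodium channel, Scnn1a, Scnn1b and Scnn1g, were all called higher, at 1.43, 2.23 and 1.72 on the log2 scale. Odc1, the first enzyme of polyamine synthesis, had 621, 7997, 2485 and 1616 counts and was 3.298-fold lower (3.15 to 3.45), whereas Arg1, which feeds it with ornithine, had 561, 2239, 2053 and 397 and was not called at -0.16. Interferon-stimulated genes were near the share over all genes, with 1 of 25 called higher and 2 lower.

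Beside the named lists, further genes had intervals far from 1. Mal, a membrane protein of apical sorting, had 252, 4761, 346 and 364 counts and was 14.1-fold lower (12.6 to 15.8). St8sia2, a polysialyltransferase, had 136, 692, 41 and 75 counts and was 17.3-fold lower (12.6 to 24.3), and Cbr2, a carbonyl reductase, had 1519, 5312, 552 and 2031 and was 9.86-fold lower (9.03 to 10.8). On the higher side Megf6 had 2181, 226, 3362 and 3618 counts and was 14.5-fold higher (12.7 to 16.7). The gasdermin gene Gsdmc had 206, 12, 231 and 203 counts and was 18.8-fold higher (10.5 to 36.9), and the cytochrome P450 gene Cyp2b10 had 208, 11, 213 and 103 and was 18.9-fold higher (10.3 to 38.4). For the higher genes of this paragraph IL-17A WT had the fewest counts of the 4 libraries.

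The Il17rc KO library was set beside the Il17rd KO library for the same genes, to show where they differ. By the same rule the Il17rc KO level was above the Il17rd KO level for 193 genes (1.49%) and below it for 356 (2.75%). The comparison of each with IL-17A WT shares that library, and against it the Il17rd KO library was called higher for 811 genes (6.27%) and lower for 483 (3.73%), together 10%, whereas 4.24% were called between the knockouts. Zc3h12a was 0.202 times its Il17rd KO level (0.185 to 0.2199), Nfkbiz 0.404 times its Il17rd KO level (0.381 to 0.427), Tnfaip2 0.311 times its Il17rd KO level (0.263 to 0.366) and C3 0.174 times its Il17rd KO level (0.143 to 0.2099). All 4 were lower in the Il17rc KO library, by the called size. S100a8 was at 0.107 times its Il17rd KO level (0.09401 to 0.121) and S100a9 at 0.0762 times its Il17rd KO level (0.0668 to 0.0864), and the envelope gene Sprr2b was at 0.141 times its Il17rd KO level (0.124 to 0.1601). Genes higher in the Il17rc KO library were F2rl1, a protease-activated receptor, at 2.99 times its Il17rd KO level (2.81 to 3.17), and Arg1 at 5.296 times its Il17rd KO level (4.75 to 5.91). E2f2 was at 3.39 times its Il17rd KO level (2.96 to 3.89). Etv5 and Hmga2 did not reach the called size, Etv5 at 1.26 times its Il17rd KO level (0.984 to 1.61) and Hmga2 at 0.693 times its Il17rd KO level (0.611 to 0.784).

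The markers of the cell type the labels name were present at high level. The 10 keratinocyte markers summed to 42055 CPM in IL-17A WT and 42496 in IL-17A Il17rc KO, and Epcam was the 1 called, with 1812, 13348, 4439 and 3521 counts. Melanocyte markers were present too, at 1681 and 2160 CPM, with 1 of 10 called, Tyr. Genes on the sex chromosomes were unequal between the libraries too. Ddx3y, on the Y chromosome, had 654, 233, 749 and 2 counts, Uty had 278, 83, 301 and 0 and Xist, transcribed from the inactive X, had 2420, 4750, 2668 and 8513. The Il17rd KO library all but lacked these Y-linked transcripts, while the other libraries held both them and Xist. For all other genes, effects of sex composition, genotype and any difference between dishes cannot be told apart here. Hair follicle markers were called higher in 8 of 17 cases and lower in 0, with a summed level of 11878 CPM in IL-17A WT and 11274 in IL-17A Il17rc KO. The part of these cells and of sex in the differentiation and growth genes was not tested.

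By position, chromosome 3, which carries the Lce, Sprr and Flg genes, had 78 genes called higher and 29 lower of 677 (15.8%). The chromosome of Il17rc had 39 higher and 28 lower of 616 (10.9%). Within 1 Mb of Il17rc, 1 of 26 genes was called (3.85%), Fancd2, a DNA repair gene, which was 2.15-fold higher (1.84 to 2.51) with 122, 244, 537 and 353 counts. Within 10 Mb 8 of 91 were called (8.79%). Both shares lie below the 11.1% over all genes.

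Genes with near-identical copies form a separate case, since reads can be assigned to any copy. Of the 1430 called genes 193 have a copy elsewhere in the annotation, and for 106 of them a copy is in the tables. With the counts of the gene and its copies added, 37 kept the call, 67 were not called and 2 were called in the opposite direction. The rest of the 193, among them Bnip3, Krt8, Etv5 and Lyz2, have no counted copy to add and were not checked this way. mt-Co2, a mitochondrial gene, had 82, 1370, 18167 and 100 counts by itself and was 12.9-fold higher (12.2 to 13.7). Added to its copies the counts were 2791, 13253, 18273 and 31324 and the log2 ratio was 0.43. mt-Atp6 had 71, 1010, 9258 and 105 counts by itself, and with copies 2825, 49815, 28627 and 45232, at -0.83. The overlapping mt-Atp8, with 10, 451, 4747 and 11 counts, has the same uncertainty. The ribosomal protein pseudogene Rpl13-ps1 had 167, 5, 401 and 119 counts and a log2 ratio of 5.82, and -0.08 with copies. Rpl7a-ps11, with 108, 659, 0 and 62 counts, was at least 225-fold lower against the floor of 3 counts per library, and at 0.26 with copies. The histone gene Hist1h2ao went from 4.44 to -0.21. Hmgb1, an abundant chromatin protein gene with 178, 272, 1795 and 367 counts, kept its call at 2.55, as did Dsg1a at 2.32 and Mki67 at 1.57. For Hmgb1 the annotation holds 44 copies elsewhere and only 2 of them were counted here, so its sum leaves most copies out. Krt6b lost its call, going from 1.36 to 0.16.

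**Figure D5:**
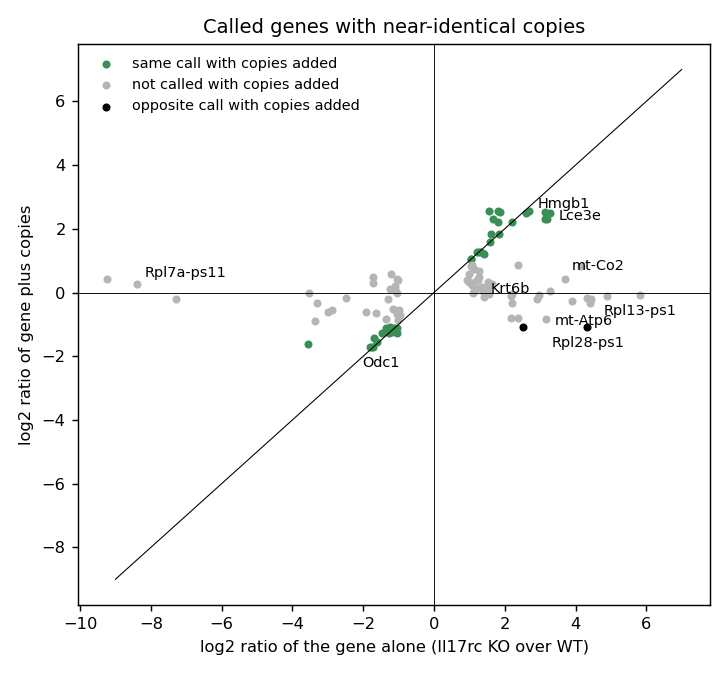
Log2 ratio of Il17rc KO over WT for the gene alone (horizontal) and for the gene with its copies added (vertical), for the 106 called genes that have a copy in the tables. The line marks equal values; 37 points keep the call (green), 67 lose it (grey) and 2 turn to the opposite call (black). mt-Co2 and Rpl13-ps1 are near 0 on the vertical axis.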

How the data were processed

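RNA-seq gene tables of 4 keratinocyte libraries, 1 per group, were used. Per the submitters' processing notes the tools included Trim Galore 0.4.4, HISAT2, featureCounts, Subread and edgeR with genome build mm10. The sources used here do not give the order of steps, the annotation, the strand setting or the treatment of reads with several matches. The deposited counts are whole reads per gene and were not normalized. The deposited FPKM values served only to check the counts. Every one of the 13102 genes exceeded 1 CPM in at least 2 libraries, so genes under that limit are not analysed here. Another 17 symbols, damaged to dates by a spreadsheet, were counted and not named.

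Library totals (19711866 to 19904695) were scaled with TMM factors over the 4 libraries (edgeR 4.0.16, R 4.3.3), 0.984 for IL-17A WT and 1.01 for IL-17A Il17rc KO. Intervals are exact conditional binomial (Clopper-Pearson) intervals at 95%, computed with scipy 1.17.1. They take each read as an independent molecule, which is not given without molecular identifiers, and cover counting error only. Calls describe 2 libraries, not the conditions. A fold against 0 counts uses a floor of 3 counts per library. The rule was tried on simulated counts for this comparison that held counting error only. That trial cannot show how the rule performs with differences between dishes or mice.

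The members and gene lists were chosen with earlier results of these data known. Named are the IL-17 receptor genes, the 15 genes each way with bounds furthest from 1, the 12 each way with the largest CPM difference, all members of 7 lists and up to 4 of every other list with the largest log2 ratio. Gene models, numbered pseudogenes and damaged symbols were left out of the sets of 15 and 12. The text does not give each of the 316 genes so selected, and some items are not reported here. Further list members and Fancd2 were named after their values were seen. Positions come from GENCODE M21. A copy is another gene, not overlapping, whose longest transcript matched at 95% identity over 50% of either sequence (BLAST+ 2.17.0). Alternatives covered scaling, prior count, filter, fold, interval, gene classes and copies.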

Additional observations from a re-analysis of the deposited data

Results flagged for a closer look

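Of 12934 genes, 16 were called in opposite directions in the 2 knockouts against the same IL-17A WT library. The 13 of them with a proper name are given here. The difference between the 2 knockouts was not tested, since each has 1 library. The values below are log2 ratios of Il17rc KO over IL-17A WT. The Y-linked genes Ddx3y, Eif2s3y, Kdm5d and Uty were higher in the Il17rc KO library, at 1.64, 1.36, 1.69 and 1.80, and had 2, 0, 0 and 0 counts in the Il17rd KO library. The mitochondrial genes mt-Atp6, mt-Atp8 and mt-Co2 were higher at 3.16, 3.35 and 3.69, and they have or overlap genes with near-identical copies. Lcn2, S100a8 and S100a9, of the antimicrobial list, were lower at -1.45, -1.31 and -1.61. The chloride channel regulator gene Clca3a2 was lower at -1.81. The cornulin gene Crnn and the keratin gene Krt79 were higher at 1.003 and 1.66. In the Il17rd KO library these last 3 genes had 921, 10 and 22 counts, against 61, 78 and 195 in the Il17rc KO library.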

How the results depend on the processing

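The counts of genes called higher and lower moved by over 1.5 times with a mean of at least 10 CPM (437 and 305), a fold of at least 1.5 (1589 and 1265) and a fold of at least 4 (207 and 164). They stayed within 1.5 times of 804 and 626 under the other alternatives run, and the share of calls on the higher side lay between 49.4% (upper quartile factors) and 59.9% (library totals). The median log2 ratio over all genes was 0.0838 with library totals, 0.0229 with DESeq2 size factors, 0.0017 with TMM factors of the 2 libraries alone and -0.0277 with upper quartile factors, so no scaling shifted it by 0.1. List medians that changed sign with a scaling were all close to 0, among them that of the signalling adaptors, which was -0.03 with upper quartile factors. With gene and copies added, an alternative chosen after seeing the data, the log2 ratio reversed for Hist1h2ao (-0.21), Rpl13-ps1 (-0.0847), Rpl28-ps1 (-1.10), Rpl7a-ps11 (0.26) and mt-Atp6 (-0.83), which the construction of that sum shows. No library could be left out, and no paired analysis was possible because each group has 1 library. Genes with few counts have wide intervals, and a 2-fold difference in them is at the limit of this depth.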
